A study of Mus musculus with 2 samples.

Results

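The MYC, MAX and MXD network is a family of basic helix-loop-helix leucine zipper transcription factors, and 10 of its genes were examined here: Myc, Mycn, Mycl, Max, Mxd1, Mxd3, Mxd4, Mxi1, Mnt and Mga. Its members were taken as all probe sets for which the platform annotation gives exactly 1 gene symbol and that symbol is one of the 10. This gave 11 probe sets of 33793 on the array, 1 for each gene except Mxi1, which had 2, and 10 genes of 22180 with a probe set of their own. Transcript levels were measured on an Affymetrix array in 2 samples of stable lines made from Niwa mouse embryonic stem cells, 1 labelled EWS-OCT4A-GFP and 1 labelled GFP. The first carries a fusion of EWS, an RNA-binding protein, to the pluripotency factor OCT4A, tagged with GFP, and the second carries GFP as the control. Both were kept in embryonic stem cell medium containing the cytokine LIF, and both received doxycycline at 1 µg/ml to lower endogenous OCT-4. This treatment is thus common to the control and the experimental line. There is no sample without doxycycline, so how far OCT-4 was lowered cannot be read here. Whether each line is a single clone, how long doxycycline was given and which promoter drives the transgene are not given in the sources used here.

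Every group holds 1 sample. The values therefore come without replicate error, no test was possible, and all differences are sizes between these 2 samples, called the fusion sample and the control from here on. A difference is the log2 value in the EWS-OCT4A-GFP sample minus that in the GFP control. Genes were called by size at 2-fold (a log2 difference of 1) where the higher value reached the floor of 4.10, which is the median over every value in the table. Levels of different probe sets are not comparable with each other on this array, so each gene is compared only with itself.

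MYC proteins bind DNA as dimers with MAX and activate transcription, and they drive growth, ribosome production and cell division. MXD1, MXI1, MXD3, MXD4 and MNT also pair with MAX. They compete with MYC for it and for the same E-box sequence, and recruit SIN3 and histone deacetylases to repress. MGA, the largest protein of the network, pairs with MAX in a Polycomb complex, PRC1.6, that keeps germ cell genes silent in embryonic stem cells. Embryonic stem cells make both c-MYC and N-MYC, which can stand in for each other in keeping them self-renewing.

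The sequence these dimers prefer is CACGTG, which reads the same on both strands. Promoter windows of 300 bases (250 before and 50 after an annotated start, RefSeq, GRCm38.p6) were given for 9 of the 10 genes, Myc being the one without, in 11 windows. CACGTG occurred in windows of 3 of the 9 genes, Mxd4, Mnt and Max, against 9.22% of 16918 array genes with a window. These stretches are shown because the network's proteins bind such sequences, and the capitals mark the motif. The Mxd4 motif began at position -219 from the start, that of Mnt at -123, and that of Max lay across the start itself, from -3 to 3.
Mxd4 (chr5:34187912-34187941, minus strand): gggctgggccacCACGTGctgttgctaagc
Mnt (chr11:74830789-74830818, plus strand): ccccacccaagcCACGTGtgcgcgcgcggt
Max (chr12:76962234-76962263, minus strand): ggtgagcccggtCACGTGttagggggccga

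The broader motif CANNTG, of which CACGTG is one case, was found in windows of 7 of the 9 genes, close to the 72.2% of array genes. No CACGTG was found in these windows of Mycn, Mycl, Mxd1, Mxd3, Mxi1 or Mga. A match of letters is not a bound site, and the 3 genes that hold the motif read differently: Mxd4 and Mnt were lower and Max near level in the EWS-OCT4A-GFP sample, as given next.

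The MYC genes themselves differed in opposite directions. Myc, which encodes c-MYC, read 7.37 in the fusion sample and 8.33 in the control, a log2 difference of -0.96 or 1.95-fold, just short of the 2-fold call. Mycn, which encodes N-MYC, read 6.04 and 4.97, a difference of 1.07 or 2.10-fold, and was the 1 member called higher. Mycl, which encodes L-MYC, read 4.19 and 3.64, a difference of 0.55, with the control value under the floor. The fusion sample thus had the lower Myc value and the higher Mycn and Mycl values. Relative to Myc, Mycn differed by 2.03 on the log2 scale, which is 4.09-fold. Because these genes went in opposite directions, this gap is by arithmetic larger than either difference alone. A gap of this kind shows unequal change and does not give the total of MYC transcripts.

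Max, the shared partner, read 7.65 in the fusion sample and 7.76 in the control, a difference of -0.11. Among 13516 genes that reached the floor, 85.9% lay at least as far from 0 as Max. Myc was lower relative to Max by a log2 value of -0.84 and Mycn higher by 1.19. The partner's transcript thus lay near level while the genes of its MYC partners did not.

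**Figure D1:**
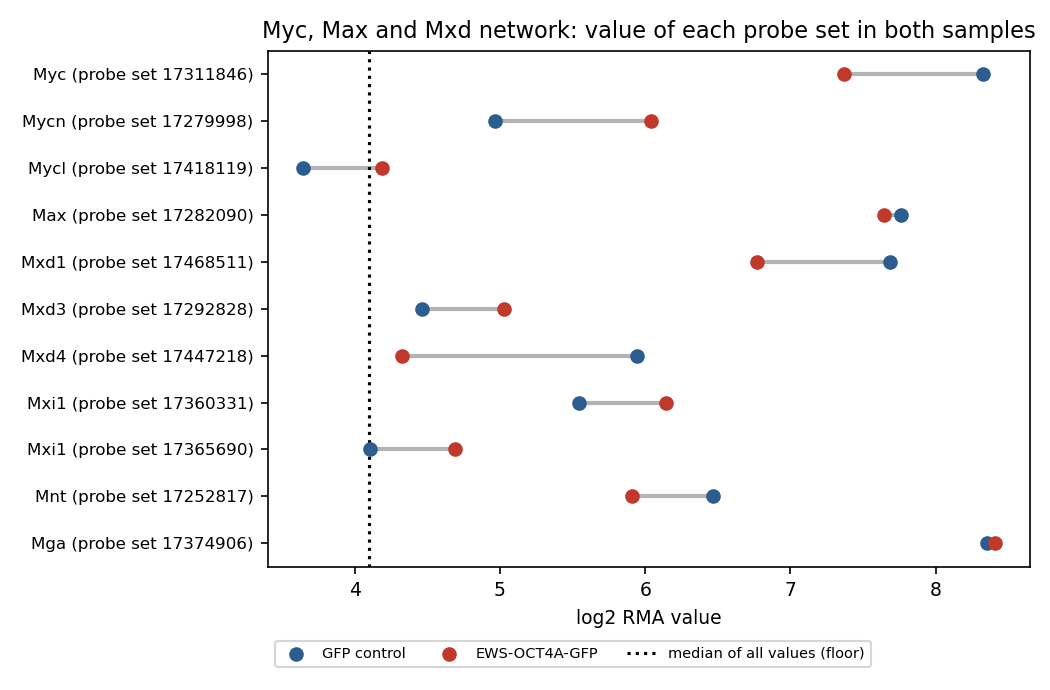
Log2 RMA value (x axis) of each of the 11 network probe sets (y axis) in the EWS-OCT4A-GFP sample (red) and the GFP control (blue), joined by a grey line, with the floor of 4.10 dotted. Myc, Mxd1, Mxd4 and Mnt are lower in the EWS-OCT4A-GFP sample, Mycn, Mycl, Mxd3 and both Mxi1 probe sets are higher, and the points of Max and Mga nearly coincide.

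The MAX-binding repressors were split as well. Mxd4, whose protein is associated with cells leaving the cycle, read 4.33 in the fusion sample and 5.94 in the control. Its difference of -1.62 (3.07-fold) was the farthest from 0 of the 10 genes, and it was the 1 member called lower. Among genes that reached the floor, 8.89% lay at least as far from 0 as Mxd4, and 5.56% were lower by as much or more. Being the farthest of 10 genes favours a small share. The EWS-OCT4A-GFP reading of Mxd4 lay just above the floor, where RMA compresses differences. Mxd1, a repressor induced in many cells as they differentiate, read 6.77 and 7.68, a difference of -0.92 or 1.89-fold. Mnt, the broadly expressed repressor of the network, read 5.91 and 6.47, a difference of -0.55. These 3 repressor genes and Myc all gave lower values in the fusion sample.

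Mxi1 and Mxd3 went the other way. The Mxi1 probe set with the higher mean read 6.14 in the fusion sample and 5.54 in the control, a difference of 0.60, and the second Mxi1 probe set read 4.69 and 4.10, a difference of 0.59. The probe sets of this gene thus gave nearly the same difference. Mxd3, unusual in the family for being expressed in dividing cells during S phase, read 5.03 and 4.46, a difference of 0.56. Within the MXD genes, Mxd3 and Mxd4 stood 2.18 apart on the log2 scale of differences (4.53-fold), and Mxi1 and Mxd1 stood 1.52 apart. Mga read 8.41 and 8.35, a difference of 0.06, and 92.9% of genes at or above the floor lay at least as far from 0.

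As a set the network had no common direction. Of the 10 genes, 5 had a difference above 0 and 5 below, and the median was -0.03, beside 0.03 over all genes at or above the floor. All 10 reached the floor in at least 1 sample and 9 in both. The count of 1 gene called higher stands beside 9.31% of all genes at or above the floor, and the count of 1 called lower beside 11.9%, so both shares are near those of the array. At 1.5-fold, 2 were higher (Mycn and Mxi1) and 3 lower (Mxd4, Myc and Mxd1), beside 20.0% and 20.6% of the array, and at 3-fold 0 were higher and 1, Mxd4, lower, beside 3.43% and 5.82%. Of the 10 genes, 8 differed by at least 0.5 on the log2 scale, a cut that was not among the planned thresholds. Several members lay just beyond it, the nearest to 0 being Mycl (0.55). Among all genes at or above the floor, 43.2% lay at least as far from 0 as Mycl. The median size without regard to sign was 0.58, against 0.46 over all genes at or above the floor. Several calls sit at the threshold. When differences were centred by loess on the mean level, Mycn fell to 0.99 and was no longer called, Myc (-1.06) and Mxd1 (-1.01) were called lower, and Mga turned to -0.05. That made 0 members higher and 3 lower, beside 8.08% and 13.1% of the array after the same centring.

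**Figure D2:**
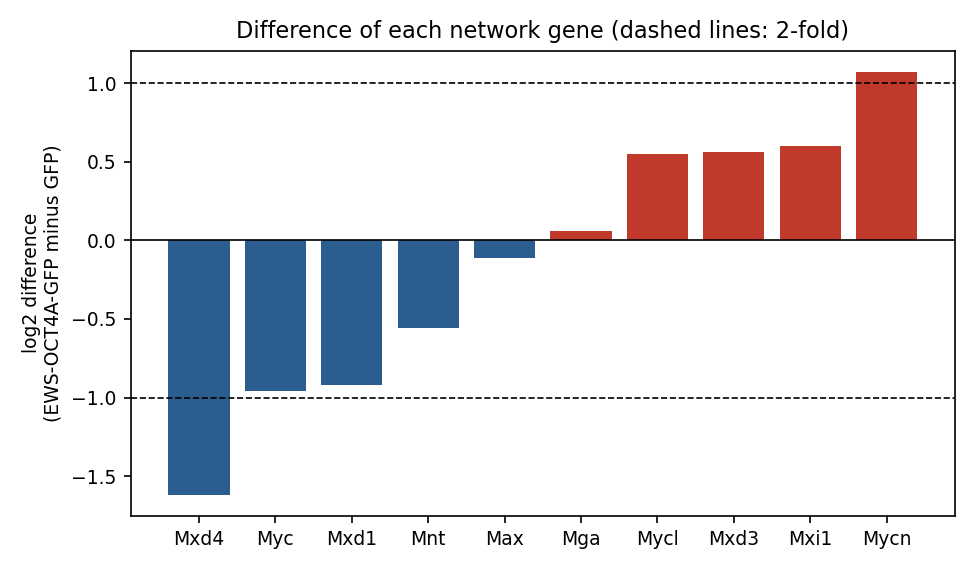
Bars give the log2 difference (EWS-OCT4A-GFP minus GFP, y axis) of the 10 network genes in rising order, from -1.62 for Mxd4 to 1.07 for Mycn, with dashed lines at 2-fold. There are 5 bars on each side of 0, and Myc (-0.96) and Mxd1 (-0.92) end just short of the lower dashed line.

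The samples lay far apart in markers of cell identity. All 15 pluripotency markers had a difference above 0, with a median of 2.56, and read between 3.81 and 10.999 in the fusion sample and between 1.96 and 7.77 in the control. All 15 trophectoderm markers lay below 0, with a median of -3.50, and read between 2.24 and 6.96 in the fusion sample and between 3.21 and 10.99 in the control. In the control 10 of the 15 pluripotency markers reached the floor, among them Zfp42 (7.77), Nanog (5.94) and Sox2 (5.50). The other 5, Gdf3, Esrrb, Nr0b1, Fgf4 and Dppa5a, read below it. The epithelial keratin gene Krt8 read 10.99 there. Proliferation markers were above 0 in 14 of 14 cases, beside 51.2% of genes at or above the floor, with a median of 0.97. Of the 14, 7 were called higher (50%) and 0 lower, beside 9.31% and 11.9% of the array. Primitive endoderm markers had a median of -0.24 and went both ways. Of 9 that reached the floor, 4 were called lower (44.4%) and 1 higher (11.1%), beside 11.9% and 9.31% of the array. Among those lower were Dab2 (-2.65), Col4a1 (-2.62) and Gata6 (-2.21), and the 1 higher was Lama1 (2.86). Fibroblast markers had a median of -0.04, with 2 of 9 called lower, Postn (-4.04) and Acta2 (-1.64), and 0 higher. The 2 are 22.2%, beside 11.9% of the array, and the 0 stand beside 9.31%. Gata6 and Postn were under the floor in the fusion sample and passed only through the control. The part of cell identity and of proliferation in the differences of Myc network genes and their targets was not tested, and fewer cells of a type and less RNA per cell cannot be told apart in such samples. The parent genes of the fusion gave little difference, Pou5f1 reading 5.37 in the fusion sample and 5.24 in the control (0.13) and Ewsr1 8.46 and 8.35 (0.11). Neither therefore shows the fusion in the sample labelled with it, and whether these probe sets can read the transgene is unknown.

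The neighbouring MLX branch uses MLX in place of MAX and responds to glucose. Mlxip, which encodes the glucose-sensing factor MondoA, read 6.02 in the fusion sample and 7.64 in the control, a difference of -1.62. Its well-known target genes were higher: Txnip, an inhibitor of glucose uptake, read 8.18 and 6.91 (1.28), and Arrdc4, a relative of Txnip, read 7.58 and 6.17 (1.42). Mlx differed by 0.13 and Mlxipl, which encodes ChREBP, by -0.12. The factor gene and its targets thus lay on opposite sides of 0. CACGTG was present in windows of 3 of these 5 genes, among them Mlx and Arrdc4, against 9.22% of array genes. The window of Txnip did not hold it. Their stretches are shown because MLX dimers also bind E-box sequences, and a match of letters is not a bound site.
Mlx (chr11:101087238-101087267, plus strand): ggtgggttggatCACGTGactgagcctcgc
Arrdc4 (chr7:68749414-68749443, minus strand): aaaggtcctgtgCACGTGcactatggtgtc

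MYC needs cofactors to act on chromatin. Of 16 measured cofactor genes, 0 were called higher and 3 lower, 13 stayed within 2-fold, and the median was 0.06. The 3 called lower are 18.8% of the list, beside 11.9% of the array, and the 0 called higher stand beside 9.31%. Mycbp2, which encodes a large MYC-binding ubiquitin ligase, read 6.84 in the fusion sample and 9.21 in the control, a difference of -2.37. Trrap, the scaffold of the acetyltransferase complexes that MYC recruits, read 7.50 and 8.60 (-1.11). Supt5, an elongation factor, read 8.13 and 9.16 (-1.03), and Paf1, of the PAF elongation complex, differed by -0.75. The remaining cofactors, among them Wdr5 (0.08), Kat5 (-0.06) and the helicase gene Ruvbl2 (0.48), lay closer to 0.

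MYC protein is short-lived, and its half-life is set by phosphorylation and ubiquitin ligases. Of 18 measured genes of MYC stability and turnover, 13 had a difference above 0, 2 were called higher and 1 lower, with a median of 0.36. Over the array 51.2% were above 0, 9.31% called higher and 11.9% lower, so the called shares of this list (11.1% and 5.56%) are near or below those. Gsk3b, the kinase that marks MYC for destruction, read 7.50 in the fusion sample and 8.96 in the control, a difference of -1.45. The ligase gene Btrc differed by -0.88, whereas Fbxw7, the ligase that reads the GSK3 mark, differed by 0.28. Cip2a, which protects MYC from dephosphorylation, read 8.38 and 7.07 (1.31), and Aurka, a mitotic kinase that stabilises N-MYC, read 8.30 and 7.16 (1.14). Both of these are also expressed with the cell cycle, and proliferation markers were higher in the same sample. The part of proliferation in the differences of Cip2a and Aurka was not tested. Protein levels were not measured.

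The corepressors used by MXD proteins and MNT were mixed, with 7 of 14 genes above 0, 1 called higher (7.14%, beside 9.31% of the array), 3 called lower (21.4%, beside 11.9%) and a median of -0.01. Sap30, a SIN3 complex subunit, read 7.93 in the fusion sample and 4.93 in the control, a difference of 2.996. Its partner Sin3b read 6.68 and 8.39 (-1.71), whereas the paralog Sin3a differed by 0.49. Rbbp7 read 9.51 and 10.95 (-1.44), whereas its paralog Rbbp4 differed by 0.75, and Arid4b differed by -1.16. The SIN3 and RBBP paralogs were thus apart by 2.20 and 2.19 on the log2 scale.

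In the PRC1.6 complex of MGA and MAX, 11 of 16 genes were above 0, 2 were called higher and 1 lower, and the median was 0.22. The called shares of 12.5% and 6.25% stand beside 9.31% and 11.9% of the array. Cbx1 (8.37 in the fusion sample, 7.13 in the control) and Cbx3 (10.14 and 9.04), which encode heterochromatin proteins, differed by 1.24 and 1.104. Hdac2 differed by 0.88. Yaf2, an adaptor subunit, read 4.79 and 6.06 (-1.27). The defining subunit genes Pcgf6 (0.25), L3mbtl2 (0.42) and E2f6 (-0.69) stayed within 2-fold, as did Mga and Max.

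Germ cell genes that MGA and MAX are known to hold silent had a median of 0.41 over 22 measured genes, with 16 above 0, against 49.6% of all array genes. In at least 1 sample 17 reached the floor, 15 in the fusion sample and 11 in the control. Some genes thus passed only through the sample where they are higher, more often the fusion sample, which favours positive differences. The 17 had a median of 0.71, with 3 called higher and 2 lower. These are 17.6% and 11.8%, beside 9.31% and 11.9% of the array. Sohlh2, a germ cell transcription factor, read 9.08 in the fusion sample and 4.69 in the control (4.39), and Rpl10l, a testis ribosomal protein gene, read 7.10 and 3.50 (3.60). Dazl, an RNA-binding protein of germ cells, read 5.04 and 4.01 (1.03). Stag3, a meiotic cohesin gene, read 6.04 and 7.15 (-1.11), and Tdrkh, of the piRNA pathway, read 3.49 and 4.51 (-1.03). The control values of Rpl10l and Dazl and the fusion sample value of Tdrkh were under the floor. CACGTG was found in windows of 10 of these 22 genes (45.5%, against 9.22% of array genes), the highest share among the network lists with more than 5 genes with a window. The 10 genes with the motif had a median of 0.26, and of the 7 that reached the floor 0 were called higher and 1 lower. The 12 without it had a median of 0.64, and of the 10 that reached the floor 3 were called higher and 1 lower. Those called higher were Sohlh2, Rpl10l and Dazl. Both medians include genes under the floor, and so few calls cannot show a contrast by motif. Genes with several windows have more letters to match. These examples from genes with the motif are shown because MGA and MAX bind such sites.
Stag3 (chr5:138280327-138280356, plus strand): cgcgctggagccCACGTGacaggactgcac
Stk31 (chr6:49395472-49395501, plus strand): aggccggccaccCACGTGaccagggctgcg
Mael (chr1:166238950-166238979, minus strand): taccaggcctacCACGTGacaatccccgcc
Slc25a31 (chr3:40708766-40708795, plus strand): cgcaactggaaaCACGTGttatggtcacat

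Of these, Stk31, a germ cell kinase-like gene, read 5.10 in the fusion sample and 4.14 in the control (0.97). Mael, of the piRNA pathway, read 5.75 and 6.63 (-0.88), and Slc25a31, a testis ADP/ATP carrier, read 4.19 and 3.82 (0.37). Genes with the motif were thus found on both sides of 0.

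Genes activated by MYC were mostly higher in the fusion sample, the sample with the lower Myc and the higher Mycn value. Of 47 measured genes, 42 had a difference above 0, against 51.2% of all genes at or above the floor. Their median was 0.67, and 12 were called higher and 2 lower, which is 25.5% and 4.26% beside the 9.31% and 11.9% of the array. Dkc1, which encodes the pseudouridine synthase dyskerin, read 8.62 in the fusion sample and 6.80 in the control, a difference of 1.81. Shmt1, an enzyme of one-carbon metabolism, read 8.02 and 6.36 (1.65). Odc1, the rate-limiting enzyme of polyamine synthesis and a classical MYC target, read 9.11 and 7.66 (1.45). The other 9 called higher, named after their values were seen, were the helicase gene Ddx18 (1.42), Ung (1.35), Nme1 (1.19), Shmt2 (1.16), the replication genes Mcm7 (1.09) and Mcm4 (1.07), the cyclin-dependent kinase gene Cdk4 (1.07), Ptma (1.04) and the chaperone gene Hspd1 (1.04). Proliferation markers were higher by a median of 0.97 in the same sample. Without Mcm4 and Mcm7, an alternative added after seeing the data, the median of the list was 0.66. Dropping 2 of 47 genes can move a median only a little, so this says nothing on the part of proliferation, which was not tested.

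The genes called lower on that list both serve membrane transport. Tfrc, the transferrin receptor that imports iron, read 8.70 in the fusion sample and 10.87 in the control, a difference of -2.17. Slc16a1, the lactate transporter MCT1, read 9.12 and 11.13 (-2.01). The amino acid transporter gene Slc7a5 read 9.03 in both samples. Among genes of nucleolar function, Dkc1 and Ddx18 were called higher, while nucleolin (Ncl, 0.47), nucleophosmin (Npm1, 0.80), Nop58 (0.93) and Nop56 (0.34) were above 0 and within 2-fold. Tert, which encodes telomerase, differed by 0.47, and Ldha, a glycolytic enzyme, by -0.10.

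Activated genes with and without the motif were compared as a description. CACGTG was found in windows of 11 of the 40 genes with a window (27.5%). Those 11 had a median of 0.66, and the 29 without it a median of 0.64. Above 0 were 8 of the 11 and 28 of the 29. Cdk4 held 4 copies, and Slc16a1, which differed in the opposite direction, held 1, so the stretches of both are shown.
Cdk4 at -172 (chr10:127063351-127063380, plus strand): atggcagccagtCACGTGccacacagcgta
Cdk4 at -118 (chr10:127063405-127063434, plus strand): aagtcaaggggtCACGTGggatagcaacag
Cdk4 at -98 (chr10:127063425-127063454, plus strand): atagcaacaggtCACGTGgccgtcagggcc
Cdk4 at -11 (chr10:127063512-127063541, plus strand): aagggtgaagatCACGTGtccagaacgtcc
Slc16a1 at -200 (chr3:104638452-104638481, plus strand): gcggcgccgggtCACGTGgcgggaaggggg

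Cdk4 read 9.97 in the fusion sample and 8.90 in the control. Over the whole array, 1234 genes at or above the floor held the motif in a window and had a median difference of 0.04, and 9296 did not and had one of 0.02. The share called higher was 9.72% with the motif and 8.94% without, and the share called lower 11.1% and 12.2%.

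**Figure D3:**
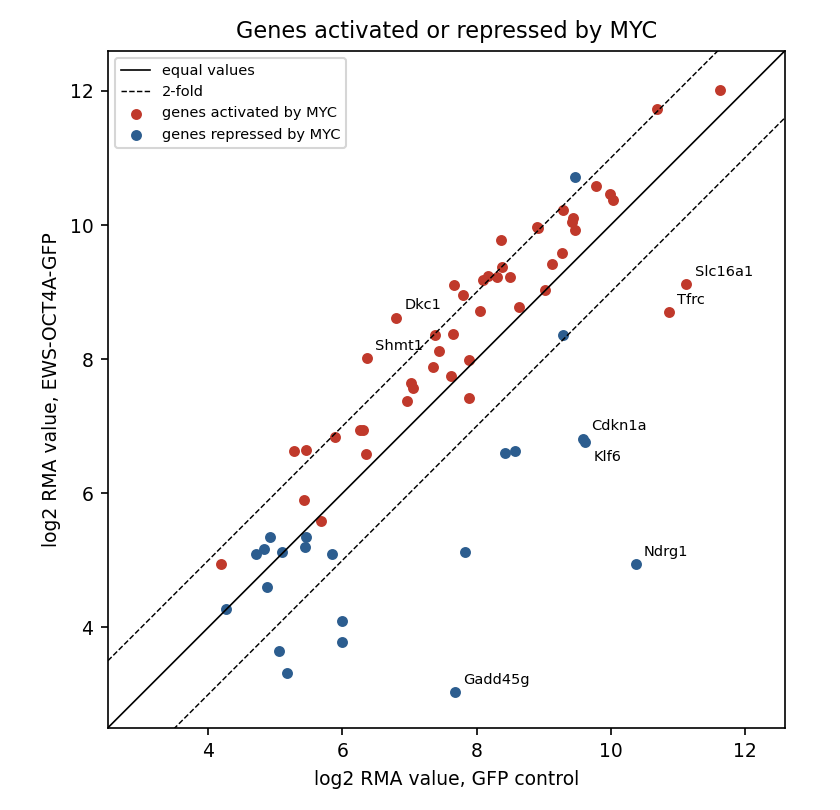
Log2 RMA value in the EWS-OCT4A-GFP sample (y axis) against the GFP control (x axis) for 47 genes activated by MYC (red) and 22 genes repressed by MYC (blue), with lines of equal values and of 2-fold. Of the red points 30 lie between the line of equal values and the upper dashed line, 12 on or above the latter, 4 (Tfrc, Slc16a1, Ipo4 and Ldha) below the line of equal values and 1 (Slc7a5) on it, and 11 blue points lie below the lower dashed line.

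Genes repressed by MYC were mostly lower. Of 22 measured genes, 16 had a difference below 0 and 5 above, and the median was -1.16. Of the 22, 11 were called lower and 1 higher, which is 50% and 4.55% beside the 11.9% and 9.31% of the array. All 22 reached the floor in the control and 18 in the fusion sample. Gadd45g, Cebpa, Thbs1 and Gata6, all called lower, passed only through the control. Ndrg1, a stress and differentiation gene, read 4.94 in the fusion sample and 10.37 in the control (-5.43). Gadd45g, a growth arrest gene, read 3.03 and 7.67 (-4.64), with the lower value under the floor. Klf6, a zinc finger factor, read 6.77 and 9.62 (-2.85), and Cdkn1a, the gene of the p21 inhibitor of cyclin-dependent kinases, read 6.81 and 9.59 (-2.77). The inhibitor genes Cdkn1b (-0.25) and Cdkn2b (0.44), also known to be repressed through MYC, stayed within 2-fold. Fth1, the iron storage subunit ferritin heavy chain, was the 1 gene called higher, with 10.72 and 9.47 (1.25). Tfrc, which brings iron in, was lower in the same sample. Several members of this list, Ndrg1 (-5.43) and Cdkn1c (-2.71) among them, are also abundant in trophoblast. Trophectoderm markers were lower in the same sample by a median of -3.50. The part of cell identity in the differences of this list was not tested.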

How the data were processed

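The authors deposited 1 table with a log2 value for each of 33793 probe sets in each sample. Per the submitters' processing notes these are RMA summaries from Affymetrix Expression Console 1.1. RMA corrects background, quantile-normalizes and summarises probes, so a shift of most transcripts would not be seen. The log base is inferred from RMA and the range of 0.62 to 13.0. The design text speaks of duplicates, yet each line has 1 column, and no source used here says whether that is 1 array or a mean. No detection call was used, and the number of arrays limits the precision.

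Probe sets with 1 symbol in the platform annotation (23521; 1814 had several and 8458 none) were used. Of these, 23328 matched a RefSeq gene ID (GRCm38.p6) and 0 symbols differed. For genes with several probe sets the one with the highest mean stood for the gene. Named genes were the 10 members, the 4 farthest from 0 in each list at or above the floor, and others chosen after their values were seen. Members and lists were chosen with earlier results of these data known. Lists came from general knowledge, and genes without a probe set of their own were not analysed here. Protein sequences were not used here. Alternatives covered the threshold, floor, normalization, probe set rule and shared genes. The calling, normalization and motif steps were tested on simulated data. The planted differences were well beyond 2-fold and in probe sets with means above the floor. Calls near the threshold or the floor were thus not covered. Python 3.11.15, numpy 2.4.6, pandas 2.3.3 and statsmodels 0.14.6 were used.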

Additional observations from a re-analysis of the deposited data

How the results depend on the processing

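No paired analysis was possible because a single sample stands for each line, and no replicate could be left out. The counts of network genes called at 2-fold (1 higher, 1 lower) changed to 2 and 3 at 1.5-fold, 0 higher at 3-fold, and 0 and 3 under loess centring. Under median, quantile and loess centring 29 of 30 member differences kept their sign, the exception being Mga at -0.05 under loess. The largest move was 0.11. Median centring could change no sign, because it shifts all genes by a single value smaller than any member difference. RMA had already quantile-normalized the values, which left a second round little room for change. Loess centring was thus the main check of sign. Among the network lists, the medians of PRC1.6 (0.12) and of genes activated by MYC (0.55) moved by 0.1 or more under loess. That of germ cell genes moved to 0.71 at or above the floor only, a filter that leaves fewer genes and favours positive differences. That of corepressors moved to -0.19 without genes on more than 1 list. The 2 genes left out there, Hdac1 (0.51) and Hdac2 (0.88), both lay above 0. The other network list medians moved by less than 0.1. Among the marker lists, those of pluripotency (2.44 under loess, 2.77 at or above the floor only), trophectoderm (-3.06 with the mean over probe sets) and proliferation (0.86 under loess) moved as well. The cause of the loess and probe set moves was not tested. Signal over background is unknown, which limits Mycl, Mxd3, Mxd4 and the second Mxi1 probe set near the floor.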
